A study of Mus musculus with 43 samples.

Results

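The comparison was between the accessible chromatin of irradiated and non-irradiated mouse intestinal organoids at day 7 (D7), both given vehicle only. It covered 6 of the 18 ATAC-seq libraries of the series, which has 43 samples in all. The regions described were the merged peaks of these 6 libraries on chromosomes 1 to 19, 38041 in number, out of 59945 regions merged from all 18 peak lists. A region was called lost when all 3 non-irradiated libraries had a peak in it and none of the 3 irradiated libraries did. It was called gained in the reverse case. By this rule 858 regions were lost and 114 were gained.

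All libraries came from primary organoids of wild-type C57BL/6 mice. The irradiated group received 4 Gy on day 4 and vehicle on day 6 for 24 h, and was collected at D7. The non-irradiated group received vehicle on day 6 for 24 h and was collected at D7. Libraries that the choice of regions did not use were set beside them. These came from D7 organoids with and without 4 Gy that received 2 ng/mL TGFB1 in place of vehicle, and from organoids given 4 Gy and vehicle in the same way but collected at day 11 (D11), with 3 libraries in each group. The organoids were dissociated to single cells, and 30000 cells entered each ATAC-seq library. The labels do not say whether replicates came from separate mice or cultures, so the p-values measure the spread between these libraries, which may be technical. Nor do they say whether irradiated and non-irradiated organoids were handled side by side, so irradiation and handling cannot be told apart.

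ATAC-seq uses the Tn5 transposase, which inserts sequencing adapters where DNA is not covered by nucleosomes. A peak marks a stretch with more insertions than its surroundings, as at active promoters and enhancers. In the intestinal epithelium, stem cells at the crypt base renew absorptive enterocytes and secretory cells, and ionizing radiation kills cycling crypt cells before surviving cells rebuild the tissue. Organoids hold this epithelium without its stroma.

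The lists of irradiated organoids were shorter. The non-irradiated libraries had 27158, 27238 and 28308 peaks in replicates 1 to 3, and the irradiated libraries had 22567, 24194 and 25683. The groups did not overlap, and the means were 27568 ± 642 and 24148 ± 1559 (SD, n = 3), a difference of -12.4% (exact permutation test, two-sided, p = 0.1, the smallest that 3 against 3 libraries can give). Peaks covered 16.4 ± 0.425 Mb in non-irradiated and 14.2 ± 0.792 Mb in irradiated lists (SD, n = 3, exact permutation p = 0.1). The score of a peak is the authors' −log10 q within its own list, so it grows with sequencing depth as well as with the contrast between peak and background. The median score was 9.60, 9.59 and 9.84 in the non-irradiated lists and 6.75, 7.99 and 7.25 in the irradiated lists, again without overlap (exact permutation p = 0.1). Peaks with a score under 5 made up 16.7 ± 0.551% of the non-irradiated and 27.2 ± 3.56% of the irradiated lists (SD, n = 3). The TGFB1 libraries of D7 differed in the same direction, with 31830 ± 5718 peaks without and 22599 ± 4142 peaks with irradiation (SD, n = 3), and the difference between the 2 effects did not pass its test (exact permutation within groups, p = 0.185). The lists carry no read counts, so the depth of the libraries is unknown, and its part in these differences was not tested. The shorter and lower-scoring lists of the irradiated libraries stand beside every count of lost and gained regions that follows.

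Of the 38041 regions, 26034 (68.4%) had a peak in at least 1 library of each group, 14568 (38.3%) had a peak in 6 of 6 libraries, and 8698 (22.9%) had a peak in a single list. Lost regions were 2.26% of all regions and gained regions 0.300%. These shares follow from the rule itself. The 858 lost regions were 4.29% of the 20006 regions with a peak in 3 of 3 non-irradiated libraries. The 114 gained regions were 0.718% of the 15867 regions with a peak in 3 of 3 irradiated libraries. Over all classes, the lost and gained ones included, 13773 regions (36.2%) had a peak in more non-irradiated than irradiated libraries. In the reverse direction there were 6414 (16.9%). Just outside the rule, 1692 regions had a peak in 2 non-irradiated and no irradiated library, and 1658 had a peak in 3 non-irradiated and 1 irradiated library. On the gained side the corresponding numbers were 645 and 365.

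**Figure D1:**
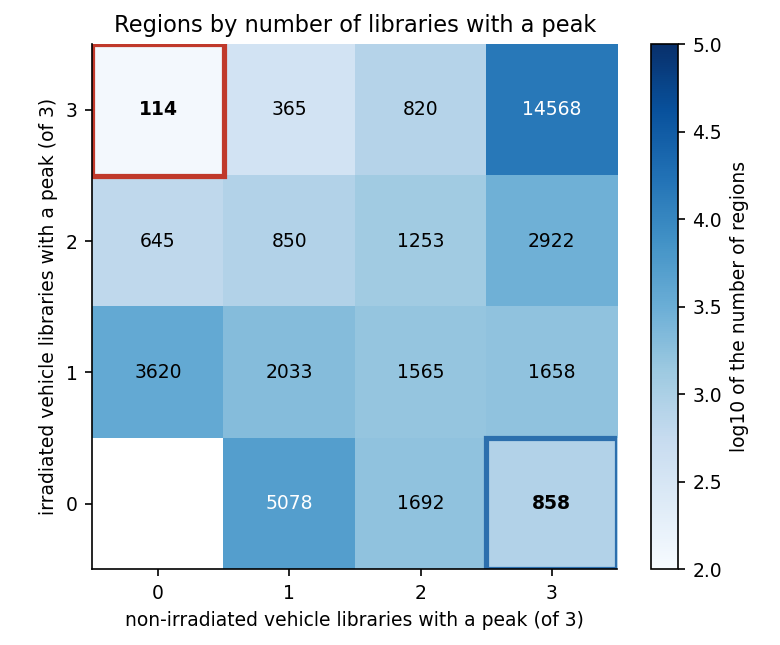
Number of merged regions by how many of the 3 non-irradiated vehicle libraries (horizontal axis) and of the 3 irradiated vehicle libraries (vertical axis) had a peak in them, coloured by the log10 of the number. The blue frame marks the 858 lost and the red frame the 114 gained regions, and the darkest cell is the 14568 regions with a peak in 6 of 6 libraries.

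The split between lost and gained depended on list length. When each of the 6 lists was reduced to its 22567 highest-scoring peaks, the length of the shortest list, 410 regions were lost and 253 gained. Lost regions were then 61.8% of the changed regions, against 88.3% with the lists as deposited. Of the 858 lost regions, 311 (36.2%) overlapped a region lost at equal list length, and 75.9% of the latter overlapped a region lost with the lists as deposited. Of the 114 gained regions, 84 (73.7%) overlapped a region gained at equal list length. Taking only peaks with a score of at least 5 moved the split the other way, to 1204 lost and 58 gained. Lost regions outnumbered gained ones in each of these settings, while the ratio between them changed.

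**Figure D2:**
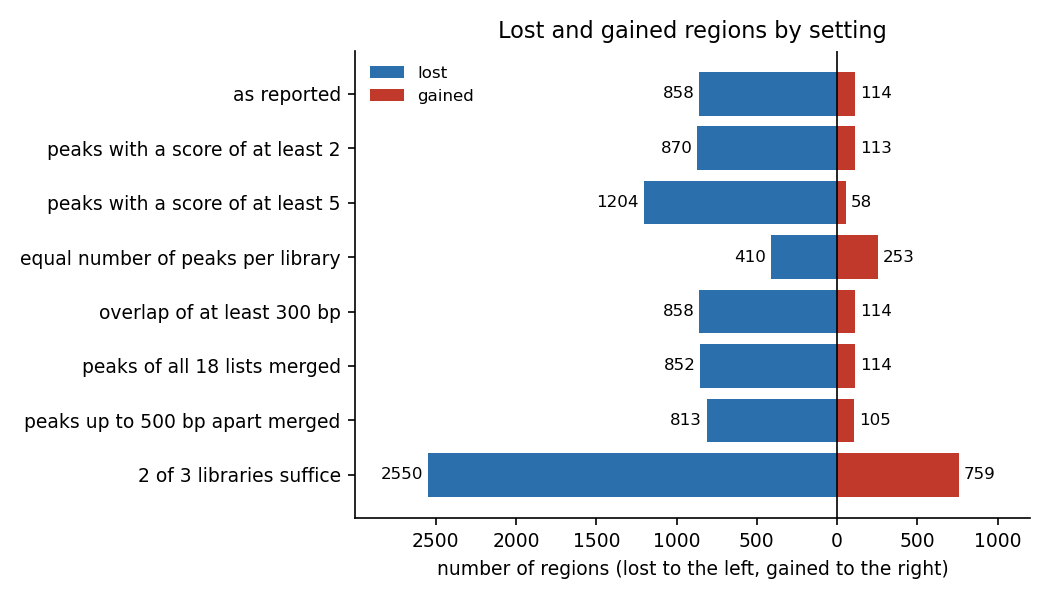
Number of lost regions (blue bars, to the left of 0) and gained regions (red bars, to the right of 0) with the lists as deposited and under 7 other settings. Lost regions are more numerous in each row, and the 2 numbers come closest, 410 and 253, with an equal number of peaks per library.

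On average, libraries of 1 group shared more of their accessible bases than libraries of different groups. The Jaccard index, the bases covered by both lists over the bases covered by either, was 0.601 to 0.605 between non-irradiated libraries and 0.541 to 0.551 between irradiated libraries. Between the groups it was 0.520 to 0.551. Of the 3 pairs of irradiated libraries, replicates 1 and 2 (0.541) and replicates 1 and 3 (0.542) lay within the range of the pairs across the groups. The mean within groups exceeded the mean between them by 0.0342 (exact permutation of the 6 libraries, two-sided, p = 0.1).

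Lost and gained regions had weak peaks in the libraries that had them. In the non-irradiated lists the median score of lost regions was 6.05, 6.01 and 6.38 in replicates 1 to 3. This placed the median lost region at the 26.7th, 25.5th and 28.0th percentile of the scores of its list. In the irradiated lists the median score of gained regions was 4.35, 5.39 and 5.34, at the 21.4th, 26.4th and 30.4th percentile. The regions in 6 of 6 libraries had median scores of 16.95, 16.8 and 18.2 in the non-irradiated lists and 9.26, 11.9 and 10.9 in the irradiated lists. Regions with a peak in 2 non-irradiated and no irradiated library had medians of 5.05, 5.28 and 5.37 in the non-irradiated lists. The reverse class had 4.54, 4.65 and 4.82 in the irradiated lists, so weak peaks were not particular to lost and gained regions. A score of at least 5 in all 3 lists was reached by 346 lost regions (40.3%) and 17 gained regions. A score of at least 10 in all 3 was reached by 9 lost regions (1.05%) and 0 gained regions. Of the regions in 6 of 6 libraries, 92.8% and 66.4% reached these 2 scores over the non-irradiated lists. Over the irradiated lists, which scored lower, 76.1% and 36.1% did, so lost and gained regions do not compare directly here.

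The share of regions without any peak in the other group fell steeply with the score. Among regions with a peak in 3 of 3 non-irradiated libraries, 21.5% had none in the irradiated libraries where the lowest of the 3 scores was 2 to 3, 7.81% at 5 to 7 and 0.260% at 10 to 15. Of the regions whose lowest score was 15 or more, none was lost. For regions with a peak in 3 of 3 irradiated libraries the shares were 3.61%, 0.433% and 0% in the same bins. Within each bin from 2 to 10 the share absent from irradiated libraries was larger than the share absent from non-irradiated ones. Scores of different lists are not on one scale, so the bins of the 2 groups do not hold equally accessible regions.

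**Figure D3:**
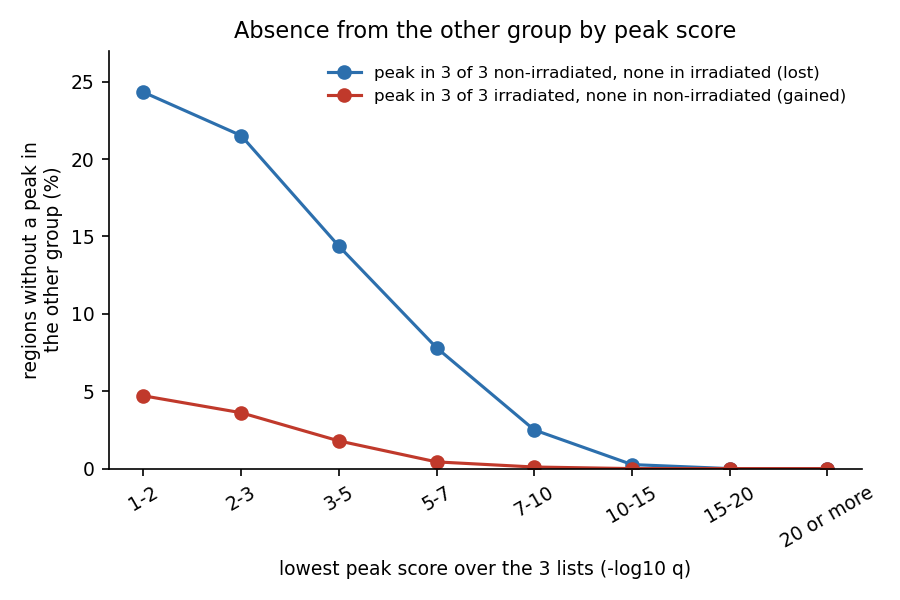
Share of regions (%) without a peak in any library of the other group, by the lowest −log10 q score over the 3 lists that have the region, for regions with a peak in 3 of 3 non-irradiated (blue) or 3 of 3 irradiated (red) libraries. Both lines fall as the score rises, the blue line from 24.3% to 0% and the red line from 4.71% to 0%.

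The peaks of a changed region lay close to each other, though less so than in shared regions. In 805 lost regions (93.8%) and 111 gained regions (97.4%) every library had exactly 1 peak. The centres of these fixed windows of 601 bp spread over a median of 68 bp in lost and 66 bp in gained regions. In the regions of 6 of 6 libraries the median spread was 48 bp over the non-irradiated and 59 bp over the irradiated lists. The centres lay within 100 bp in 67.9% of lost regions, against 82.9% of the regions of 6 of 6 libraries over the same non-irradiated lists. They did so in 70.2% of gained regions, against 75.2% over the irradiated lists. Peaks of a region must touch by the merging rule, which bounds this spread. The nearest peak of an irradiated library was a median of 10.2 kb from a lost region, and 93 lost regions (10.8%) had one within 1 kb. Regions with a peak in 2 non-irradiated and no irradiated library stood at 10.1 kb and 10.6%. Of the gained regions, 17 (14.9%) had a non-irradiated peak within 1 kb, against 14.3% of regions with a peak in 2 irradiated and no non-irradiated library. A lost region lay within 100 kb of 13 gained regions (11.4%), against 14.6% of all regions that were not lost.

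The lost regions named here are the 10 whose lowest within-list percentile of the score was highest. Coordinates are of the mouse build mm9, counted from 1. Genes at these positions were not analysed here. The leading one, chr9:44169473-44170156, had scores of 14.3, 12.2 and 14.8 in non-irradiated replicates 1 to 3. All of these lay above the median of their lists. In the TGFB1 libraries the same region had a peak in all 3 non-irradiated samples, with scores of 8.41, 12.6 and 8.40, and in all 3 irradiated samples, with scores of 15.3, 12.9 and 12.2. The absence from irradiated lists was not seen there. The region chr12:77679436-77680072 scored 19.7, 12.7 and 12.0 in the non-irradiated vehicle lists. In the TGFB1 libraries it had a peak in all 3 non-irradiated samples and in 1 irradiated sample, where it scored 2.57.

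Among the same 10, chr6:82771601-82772221 went with irradiation in both settings. It scored 17.7, 11.6 and 10.3 in the non-irradiated vehicle lists and 6.08, 10.7 and 6.05 in the non-irradiated TGFB1 lists, and no irradiated D7 library of either treatment had a peak there. For chr11:31269836-31270460 the vehicle scores were 10.0, 13.6 and 12.3, and with TGFB1 it had a peak in 2 non-irradiated samples and no irradiated sample. The remaining members of the 10 were chr6:86743260-86743888, chr4:101342306-101342991, chr9:20702741-20703393, chr7:140985011-140985747, chr19:32419077-32419701 and chr10:17513579-17514315. With TGFB1, 8 of the 10 had a peak in all 3 non-irradiated samples, against 44.5% of all lost regions and 55.6% of all regions. In all 3 irradiated TGFB1 samples 5 had one, against 13.2% and 37.6%. All 10 had a peak in 3 of 3 irradiated vehicle libraries of D11, against 80.4% and 67.0%. These 10 were chosen for high scores, so the counts do not describe lost regions in general. The widest lost region, chr3:38389357-38390950, spanned 1594 bp and had a peak in 3 non-irradiated and 1 irradiated TGFB1 sample.

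The leading gained region, chr7:16884853-16885492, scored 8.43, 8.62 and 8.08 in irradiated replicates 1 to 3. With TGFB1 it had a peak in all 3 non-irradiated samples and in 2 irradiated samples, so its absence from non-irradiated vehicle lists was not seen there. The next regions, chr10:60836515-60837128 and chr8:116960584-116961224, had a peak in 2 irradiated TGFB1 samples and in no non-irradiated one. The first scored 7.74, 8.46 and 9.24 in the irradiated vehicle lists and 5.80 and 6.76 in the irradiated TGFB1 lists. The second scored 7.99, 9.13 and 7.30 with vehicle and 10.9 and 12.2 with TGFB1. The opposite held for chr10:9328881-9329520, which had a peak in all 3 non-irradiated and in no irradiated TGFB1 sample. The other leading gained regions were chr1:44444834-44445549, chr17:12490815-12491470, chr1:173745790-173746423, chr5:89117671-89118349, chr19:58000802-58001408 and chr2:68201004-68201718. Of these 10 gained regions, 3 had a peak in more irradiated than non-irradiated TGFB1 samples, 4 in fewer and 3 in as many. The same shares were 23.7%, 42.1% and 34.2% of the 114 gained regions, and 5.92%, 38.4% and 55.7% of all regions. The widest gained region, chr17:48340585-48341721, spanned 1137 bp.

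The TGFB1 libraries of D7 did not enter the choice of regions and show how the same places fared in a second irradiated and non-irradiated pair. Lost regions had a peak in 83.3%, 64.5% and 61.3% of cases in non-irradiated TGFB1 replicates 1 to 3. In irradiated TGFB1 replicates 1 to 3 the shares were 52.8%, 31.8% and 29.5%. The groups did not overlap, and the means were 69.7 ± 11.9% and 38.0 ± 12.8%, a difference of -31.7 percentage points (SD, n = 3, exact permutation test, two-sided, p = 0.1). Replicate 1 was the highest in both groups and also had the longest list of its group, with 38299 and 27368 peaks. The same comparison over all regions gave 69.5% and 52.0%, a difference of -17.5 points, and over the regions of 6 of 6 libraries 98.1% and 89.8%, a difference of -8.29 points (exact permutation p = 0.1 for each, n = 3).

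Lost regions were set beside 2 classes that were balanced between the vehicle groups. Regions with a peak in 2 irradiated and 2 non-irradiated vehicle libraries had a peak in 71.9% of cases in non-irradiated and 40.4% in irradiated TGFB1 samples, a difference of -31.5 points. Within each TGFB1 sample, the share of lost regions minus that of these balanced regions was -1.66, -3.86 and -1.10 points without irradiation and -4.11, 0.533 and -3.63 points with it (exact permutation, p = 0.9, n = 3). The sparser balanced class, with a peak in 1 library of each group, differed by -25.5 points. Lost regions exceeded it by 21.4, 24.8 and 25.4 points in non-irradiated and by 21.1, 17.4 and 14.5 points in irradiated replicates 1 to 3, without overlap (exact permutation p = 0.1, adjusted p = 0.114 over 8 contrasts, n = 3). By the strict rule, 86 of the 858 lost regions (10.0%) were lost again with TGFB1, having a peak in 3 of 3 non-irradiated and 0 of 3 irradiated samples. Of all 38041 regions 4.39% met that rule, and of the class with 2 libraries in each group 9.02%. Another 113 lost regions (13.2%) had a peak in all 3 irradiated TGFB1 samples, against 37.6% of all regions and 14.1% of that balanced class.

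Gained regions had a peak in 55.3%, 29.8% and 34.2% of cases in non-irradiated and in 41.2%, 17.5% and 25.4% in irradiated TGFB1 replicates 1 to 3. The groups overlapped, and the means of 39.8 ± 13.6% and 28.1 ± 12.1% differed by -11.7 points (SD, n = 3, exact permutation p = 0.4). Gained regions were thus not more frequent in irradiated TGFB1 lists as deposited. None of the 114 was gained again by the strict rule, which 0.108% of all regions met.

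Lost and gained regions were also compared with each other inside each TGFB1 sample, where both share 1 list and its length. The share of lost regions exceeded that of gained regions by 28.1, 34.6 and 27.1 points in non-irradiated replicates 1 to 3 and by 11.6, 14.3 and 4.05 points in irradiated replicates 1 to 3. All irradiated values lay below all non-irradiated values, with means of 9.96 ± 5.30 and 29.9 ± 4.10 points (SD, n = 3, exact permutation p = 0.1, adjusted p = 0.114 over 8 such contrasts). The mirrored classes just outside the rule differed in the same direction. Regions in 2 non-irradiated and no irradiated vehicle library exceeded the reverse class by 16.8 points in non-irradiated and by 2.56 points in irradiated TGFB1 samples. Against the sparser balanced class, gained regions were lower by 6.67, 9.87 and 1.65 points in the non-irradiated and higher by 9.55, 3.13 and 10.5 points in the irradiated TGFB1 samples. Against the balanced class with 2 libraries in each group, they differed by -32.1 points without and -12.4 points with irradiation. This shift of 19.8 points (exact permutation p = 0.1, adjusted p = 0.114, n = 3) was near that between lost and gained regions. The lost minus gained contrast was thus not particular to lost regions. Sharing a list did not free it from list length. It went from -20.0 to -8.61 points when the 6 TGFB1 lists were reduced to 19907 peaks each, a setting chosen after seeing the data.

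With the 12 D7 lists reduced to an equal number of 19907 peaks each, 417 regions were lost and 241 gained between the vehicle groups. The lost regions had a peak in 58.5%, 58.3% and 62.1% of cases in non-irradiated and in 52.0%, 54.9% and 48.2% in irradiated TGFB1 replicates 1 to 3. The gained regions had one in 32.0%, 30.7% and 32.0% without and in 40.2%, 37.8% and 36.5% with irradiation. At equal length, both classes thus differed in the TGFB1 samples in the direction of the vehicle comparison, by -7.91 and 6.64 points, without overlap between the groups (exact permutation p = 0.1 for each, n = 3). Over all regions the difference was -3.15 points. This setting also redefines the lost and gained regions. With the 858 and 114 regions kept and only the 6 TGFB1 lists reduced to 19907 peaks, lost regions had a peak in 33.4%, 31.5% and 33.2% of cases in non-irradiated and in 30.4%, 31.8% and 27.6% in irradiated replicates 1 to 3. These groups overlapped, and the difference was -2.76 points (exact permutation p = 0.2, n = 3), against -2.14 points over all regions. The 114 gained regions had a peak in 15.8%, 14.0% and 14.0% of cases without and in 19.3%, 17.5% and 24.6% with irradiation, without overlap, a difference of 5.85 points (exact permutation p = 0.1, n = 3). The difference for gained regions thus turned from -11.7 points with the lists as deposited to 6.64 and 5.85 points in these 2 settings, and that for lost regions shrank from -31.7 to -7.91 and -2.76 points.

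**Figure D4:**
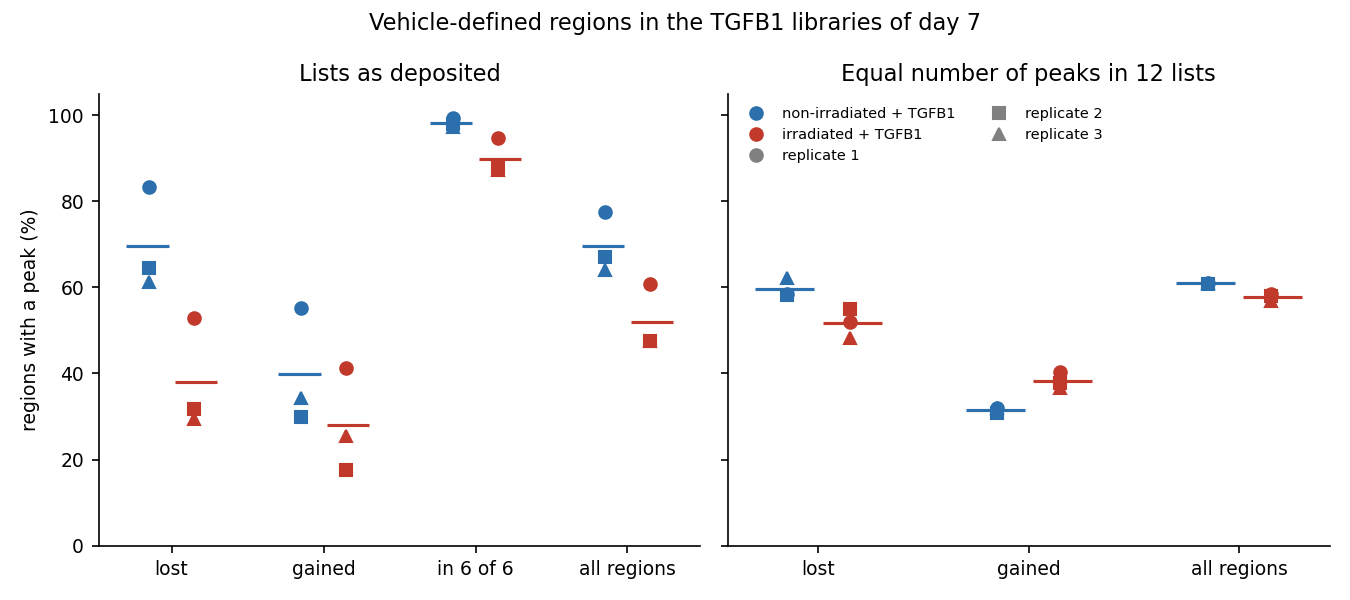
Share (%) of regions defined in the vehicle libraries that had a peak in each non-irradiated (blue) and irradiated (red) TGFB1 library of D7, with the lists as deposited (left) and with 19907 peaks per list and the regions defined anew (right). Symbols are replicates and lines are means. Lost regions are less frequent in irradiated samples in both panels, while gained regions are less frequent on the left and more frequent on the right.

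The loss at D7 did not mark places without peaks at D11. Of the lost regions, 97.0%, 97.4% and 81.5% had a peak in the 3 irradiated vehicle libraries of D11. Over all regions the shares were 83.6%, 87.9% and 69.8%. A peak in all 3 was found in 690 of the 858 (80.4%), against 67.0% of all regions. Regions with a peak in 2 vehicle libraries of each group stood at 94.1%, 96.9% and 76.2%. Those in 3 non-irradiated and 1 irradiated vehicle library stood at 97.9%, 98.9% and 87.8%, so high D11 shares were not particular to lost regions. These D11 lists were longer, with 40513, 48078 and 29956 peaks. Gained regions had a peak in 59.6%, 75.4% and 36.0% of cases there. Regions with a peak in 2 irradiated and no non-irradiated vehicle library stood at 59.2%, 66.8% and 31.8%.

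Lost regions were spread over all 19 chromosomes. Their share of the regions of a chromosome ran from 1.80% on chromosome 4 to 3.60% on chromosome 19, where 42 of 1167 regions were lost. On chromosome 11, 71 of 2635 regions were lost (2.69%, against 2.26% over all regions) and 2 were gained (0.0759%, against 0.300%). The share of all peaks on a chromosome separated the vehicle groups on 4 of 19 chromosomes, higher in irradiated libraries on chromosomes 1 and 2 and lower on 11 and 19 (exact permutation, smallest adjusted p = 0.422). On chromosome 1 the shares were 6.88 to 6.99% in irradiated and 6.69 to 6.79% in non-irradiated lists. In the TGFB1 libraries the groups overlapped on each of these 4 chromosomes. They separated there on chromosomes 8, 10, 13, 14, 15, 16 and 17, on which the vehicle groups overlapped.

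**Figure D5:**
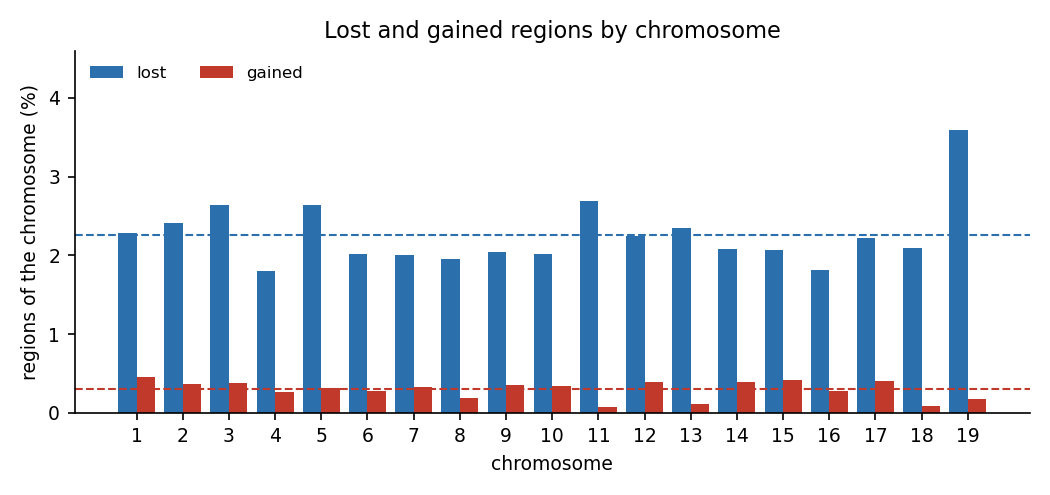
Share (%) of the merged regions of each chromosome that were lost (blue bars) or gained (red bars). Dashed lines mark the shares over all regions, 2.26% and 0.300%, and chromosome 19 has the highest lost share, 3.60%.

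Clusters of lost regions were few. Only 7 runs of at least 3 lost regions with gaps of at most 100 kb were found, each with 3 members, which together held 21 of the 858 lost regions (2.45%). No such run was found among the 114 gained regions, which were far fewer, so the 2 classes cannot be compared in this. How many runs other sets of these sizes would hold was not tested. The runs spanned 68.3 to 147 kb and held 55 regions in all, 15 of which had a peak in 6 of 6 libraries. These shared regions were unevenly placed, with 6 in chr2:163360265-163485153 and 0 in chr19:32316496-32419701. The first, chr1:136065002-136134524, had members scoring 4.12 to 11.1 in the non-irradiated lists. Both runs on chromosome 19 lay at chr19:21126238-21194555 and chr19:32316496-32419701, and the second ended in a region already named among the 10 leading ones. The other runs lay at chr2:163360265-163485153, chr5:32155030-32301675, chr6:86657960-86743888 and chr17:28954280-29052686. Of the 21 members, 12 (57.1%) had a peak in all 3 non-irradiated TGFB1 samples, against 44.5% of all lost regions and 55.6% of all regions. A peak in at least 1 irradiated TGFB1 sample was found in 17 (81.0%), against 63.9% and 67.5%. In all 3 irradiated vehicle libraries of D11, 19 (90.5%) had a peak, against 80.4% and 67.0%.

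RNA-seq libraries of the same 2 vehicle groups, 3 each, give the levels of cell type markers in the D7 organoids. Their FPKM values stand in 2 separately normalized tables, so levels are set side by side without a test. Of 11235 genes with enough signal, a mean of at least 1 FPKM over the 6 libraries, 40.7% were higher in all irradiated than in all non-irradiated libraries and 44.3% were lower. All 17 markers of the small-intestinal epithelium had enough signal, of which 11 were higher in the irradiated libraries, 5 were lower and 1 overlapped. The cell adhesion gene Epcam stood at 1085 ± 19.1 FPKM in non-irradiated and at 634 ± 14.5 FPKM in irradiated libraries (SD, n = 3). Vil1, a protein of the brush border, stood at 195, 200 and 193 FPKM in non-irradiated and at 339, 331 and 341 FPKM in irradiated replicates 1 to 3. Markers of other cells were low. The 6 mesenchymal markers summed to 4.40 to 4.91 FPKM in non-irradiated libraries and 4.13 to 5.23 FPKM in irradiated ones, most of it Vim. Acta2 was low but higher with irradiation, at 0.0410 and 0.419 FPKM. The collagen genes Col1a1, Col1a2 and Col3a1 were at most 0.0557 FPKM in any library. Each of the 3 endothelial markers and the 3 markers of neurons and glia was under 1 FPKM in all 6 libraries. The 5 immune markers summed to 1.92 to 2.45 and 3.77 to 4.50 FPKM, with the macrophage gene Lyz2 at 0.426 and 2.88 FPKM, the myeloid integrin gene Itgam at 1.68 and 1.10 FPKM, Ptprc near 0, and Cd3e listed at 0 in all 3 irradiated libraries. The part of such cells in the accessibility differences was not tested.

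Enterocyte genes stood higher in the irradiated organoids. Of 20 genes of the list, 19 were higher in all irradiated than in all non-irradiated libraries, against 40.7% of all genes. The median difference was 1.52 in log2(FPKM + 1), against -0.03 over all genes. Rbp2, which carries retinol in enterocytes, stood at 83.7, 87.0 and 86.6 FPKM in non-irradiated and at 1729, 1858 and 1923 FPKM in irradiated replicates 1 to 3. Fabp1, a fatty acid carrier, stood at 683 ± 43.5 and 3731 ± 152 FPKM, and the apolipoprotein gene Apoa4 at 160 ± 3.77 and 1560 ± 78.5 FPKM (SD, n = 3). Cdx1, a homeobox factor of the intestine, stood at 61.2 ± 1.07 and 206 ± 5.23 FPKM. The related Cdx2 was the single gene of the list that was lower, at 144 ± 4.64 and 119 ± 2.27 FPKM. In bulk RNA, more cells of a type and more RNA per cell cannot be told apart.

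Stem and secretory genes were mixed. Of 15 stem genes 6 were higher, 8 lower and 1 overlapped between the groups, where 40.7% of all genes were higher and 44.3% lower. Lgr5, the receptor that marks crypt base stem cells, stood at 103, 107 and 104 FPKM without and at 21.9, 21.8 and 21.6 FPKM with irradiation. Olfm4, another gene of crypt base cells, stood higher with irradiation, at 373 ± 29.7 and 666 ± 16.2 FPKM (SD, n = 3). Of 18 secretory genes 9 were higher, 7 lower and 2 overlapped, beside the same shares of all genes. Defa24, a Paneth cell defensin, stood at 5950 ± 84.8 and 1690 ± 128 FPKM, and the enteroendocrine gene Chga at 40.8 ± 1.16 and 63.8 ± 1.40 FPKM. Lyz1, also of Paneth cells, went the other way, at 1667 ± 17.0 and 1919 ± 142 FPKM, while Mmp7 and Ang4 were lower with irradiation. Of other enteroendocrine genes, Chgb stood lower, at 133 ± 3.47 and 120 ± 2.99 FPKM, Neurog3 stood higher and Neurod1 overlapped.

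Genes of the damage and regeneration lists were mostly lower in the irradiated organoids at D7. Of 20 targets of p53, the factor activated by DNA damage, 18 were lower and 2 higher, against 44.3% and 40.7% of all genes. Cdkn1a, which halts the cell cycle, stood at 200 ± 7.50 FPKM without and 173 ± 0.946 FPKM with irradiation. The stress cytokine gene Gdf15 stood at 75.4, 78.1 and 79.4 FPKM without and 10.9, 11.1 and 8.89 FPKM with it. Of 16 measured regenerative genes and YAP targets with enough signal, 13 were lower, against 44.3% of all genes. Ly6a, a surface marker of regenerating epithelium, stood at 131 ± 11.1 and 29.0 ± 0.934 FPKM. The matricellular gene Ccn2, listed under its synonym Ctgf, stood at 8.66 ± 0.976 and 1.12 ± 0.387 FPKM. Clu, which marks revival stem cells after injury, was among the 3 that were higher, at 48.5, 43.2 and 51.3 FPKM without and 186, 179 and 208 FPKM with irradiation. Of 11 proliferation genes 5 were higher and 6 lower, against 40.7% and 44.3% of all genes. Which of these genes lie near lost or gained regions was not analysed here.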

How the data were processed

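The deposited ATAC-seq files are 1 peak list per library, with windows of 601 bp and a score that the authors give as −log10 q. The file names record MACS2 at q 0.05, Picard and a blacklist subtraction. The submitters' processing notes name MACS2 2.1.0, Picard 2.18.27, Bowtie2 and the build mm9. Peaks on chromosome 1 reach position 197175936, beyond the last gene of GRCm38 at 195291439. RNA levels are FPKM as the authors deposited them, and the notes name TopHat2 2.1.0 and Cuffnorm 2.2.1.

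Peaks of chromosomes 1 to 19 were merged where they shared 1 bp, with Python 3.11.15, pandas 2.3.3 and numpy 2.4.6. The merging was tested on simulated data and checked with bedtools. Presence of a region in a library required an overlap of at least 1 bp with one of its peaks. Differences between groups of 3 libraries were tested by exact permutation, two-sided. For RNA, a gene had enough signal at a mean of at least 1 FPKM over the 6 libraries. The leading regions were ranked by the lowest within-list percentile of the score, 10 in each direction. Members, gene lists and tests were chosen with earlier results of these data known. Same-numbered libraries deviated with correlations of 0.0144, -0.0136 and -0.00319, so the numbers were not taken as pairs. At most 1.13% of windows were identical between 2 of the 6 lists. Sequences, motifs and distances to transcription starts were not analysed here, since no reference of the files' build was used here.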

Additional observations from a re-analysis of the deposited data

How the results depend on the processing

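Of 93 alternative values, 75 kept their direction and stayed within 1.5 times for counts, 16 counts moved by more and 2 values turned their direction. The numbers of lost and gained regions were 858 and 114 as reported. With an equal number of peaks per library they were 410 and 253, with a score of at least 5 gained regions numbered 58, and with 2 of 3 libraries sufficing they were 2550 and 759. Leaving out 1 library gave 1267 to 1489 lost and 204 to 369 gained regions, since 2 libraries then suffice in 1 group. Each of the 6 libraries had this effect on the gained count. The difference in the share of gained regions with a peak between irradiated and non-irradiated TGFB1 libraries turned from -11.7 to 6.64 points with an equal number of peaks in the 12 D7 libraries, and to 5.85 points with an equal number in the 6 TGFB1 libraries and the regions as reported, a setting chosen after seeing the data. Without non-irradiated TGFB1 replicate 1 it was -3.95 points, and without irradiated TGFB1 replicate 1 it was -18.3 points. The lost minus gained contrast, its alternatives chosen after seeing the data, was -14.6 points at equal length of the 12 lists, -8.61 points at equal length of the 6 TGFB1 lists and -13.3 points with a score of at least 5, against -20.0 points. The replicate block was a sign-flip permutation over same-numbered libraries. Its sign-flip p was 0.25 for peaks (-3420), bases covered, median score and the shares in TGFB1 libraries, the smallest that 3 pairs allow. The exact permutation of 3 against 3 libraries gives at least 0.1, so the replicate block could not change a call. A score of at least 5, added after seeing the data, separated 6 of 19 chromosomes in place of 4. The Jaccard difference of 0.0342 was 0.0184 to 0.0215 without any 1 of the non-irradiated vehicle libraries, 0.0270 at equal list length and 0.0534 with a score of at least 5. With that score the difference in peaks was -5363. The difference in the share of lost regions with a peak in TGFB1 libraries, -31.7 points, was -7.91 points at equal length of the 12 lists and -2.76 points at that of the 6 TGFB1 lists. An overlap of 300 bp gave 858 and 114. Distance to transcription starts was not run. Peak lists without read counts limit every comparison of strength between libraries.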
